A study of Mus musculus with 3 samples.

Results

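The genes described here are the heat shock proteins and their co-chaperones: the small heat shock proteins (Hspb), HSP70 and its relatives (Hspa), HSP90, HSP110 (Hsph), the mitochondrial chaperonin pair (Hspd1 and Hspe1), the J-domain proteins (Dnaja, Dnajb and Dnajc) and the Bag family. They were taken by gene symbol, and a symbol was kept when it had at least 100 UMIs (unique molecular identifiers, each standing for 1 captured transcript) over the 3 libraries. The symbol pattern matched 79 of the 32285 listed genes, and 74 of them reached that number. Dnajb13 with 135 UMIs and Hspb7 with 164 lay just above it, and Dnajb7 with 45 lay below. Hsp90ab1 had the most, 638730 UMIs, followed by Hsp90aa1 with 480956 and Hspa8 with 442961. The genes were chosen by name and total count, with no use of cell class, stage or sex.

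Chaperones bind unfolded or partly folded proteins and keep them from aggregating. HSP70 works in a cycle: a J-domain protein delivers the client and triggers ATP hydrolysis, and a nucleotide exchange factor such as HSP110 or a Bag protein releases it. HSP90 takes up clients later in folding, small heat shock proteins hold unfolded proteins without using ATP, and HSPA5 and HSP90B1 do the corresponding work in the endoplasmic reticulum. When unfolded protein builds up, heat shock factors raise transcription of the cytosolic genes through heat shock elements, and the unfolded protein response raises the reticulum genes through endoplasmic reticulum stress response elements. In neurons some members serve constant needs instead, such as the uncoating of clathrin-coated vesicles by auxilin (Dnajc6) with Hspa8 and the care of synaptic vesicle proteins by Dnajc5.

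The study profiled single cells of the mouse medial prefrontal cortex to compare estrous stage and sex. There were 3 libraries, 1 each from females in estrus, females in diestrus and males, and each was made from 2 mice; the labels name no age, strain or genotype. Tissue was digested with papain for 20 min at 34 °C, cleaned on Percoll, and 15000 cells per library were loaded for 3′ sequencing. The cells are labelled as total neurons, but no sort is described and most cells carried glial or vascular markers. With 1 library per stage or sex, a difference between libraries cannot be told apart from a difference between the pooled mice or the preparations, and it has no test.

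The estrus, diestrus and male libraries held 14476, 18052 and 19555 barcodes and 152291602, 144738154 and 115632520 UMIs. After removal of cells with fewer than 500 genes or more than 15% mitochondrial UMIs, 12981, 14855 and 16344 cells remained, and a gate on 6 marker genes per class placed 11464, 10868 and 12090 of them. Of those, 1348, 1693 and 1495 were glutamatergic neurons and 168, 345 and 336 GABAergic neurons. The 10 classes with at least 50 cells in every library were used, and no heat shock gene is among the gate's markers. The libraries shared 81, 68 and 97 cell barcodes in pairs, with 0 in all 3. RNA of glutamatergic neurons was present in every other class: summed neuronal markers in microglia stood at 3.76% of the neuronal level in estrus, 9.46% in diestrus and 12.5% in the male library. That share was lowest in estrus and highest in the male library in each of the 8 non-neuronal classes, and it is given below beside the results it touches.

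All 74 members together made up 1.22% of nuclear-gene UMIs in glutamatergic neurons in estrus, 1.04% in diestrus and 1.05% in the male library. In astrocytes they made up 0.525%, 0.599% and 0.575%, the lowest shares of any class in estrus, diestrus and male alike. GABAergic neurons held the highest mean of 17 members, glutamatergic neurons of 10, and oligodendrocytes, pericytes and smooth muscle cells of 9 each, while astrocytes held that of 1.

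**Figure D1:**
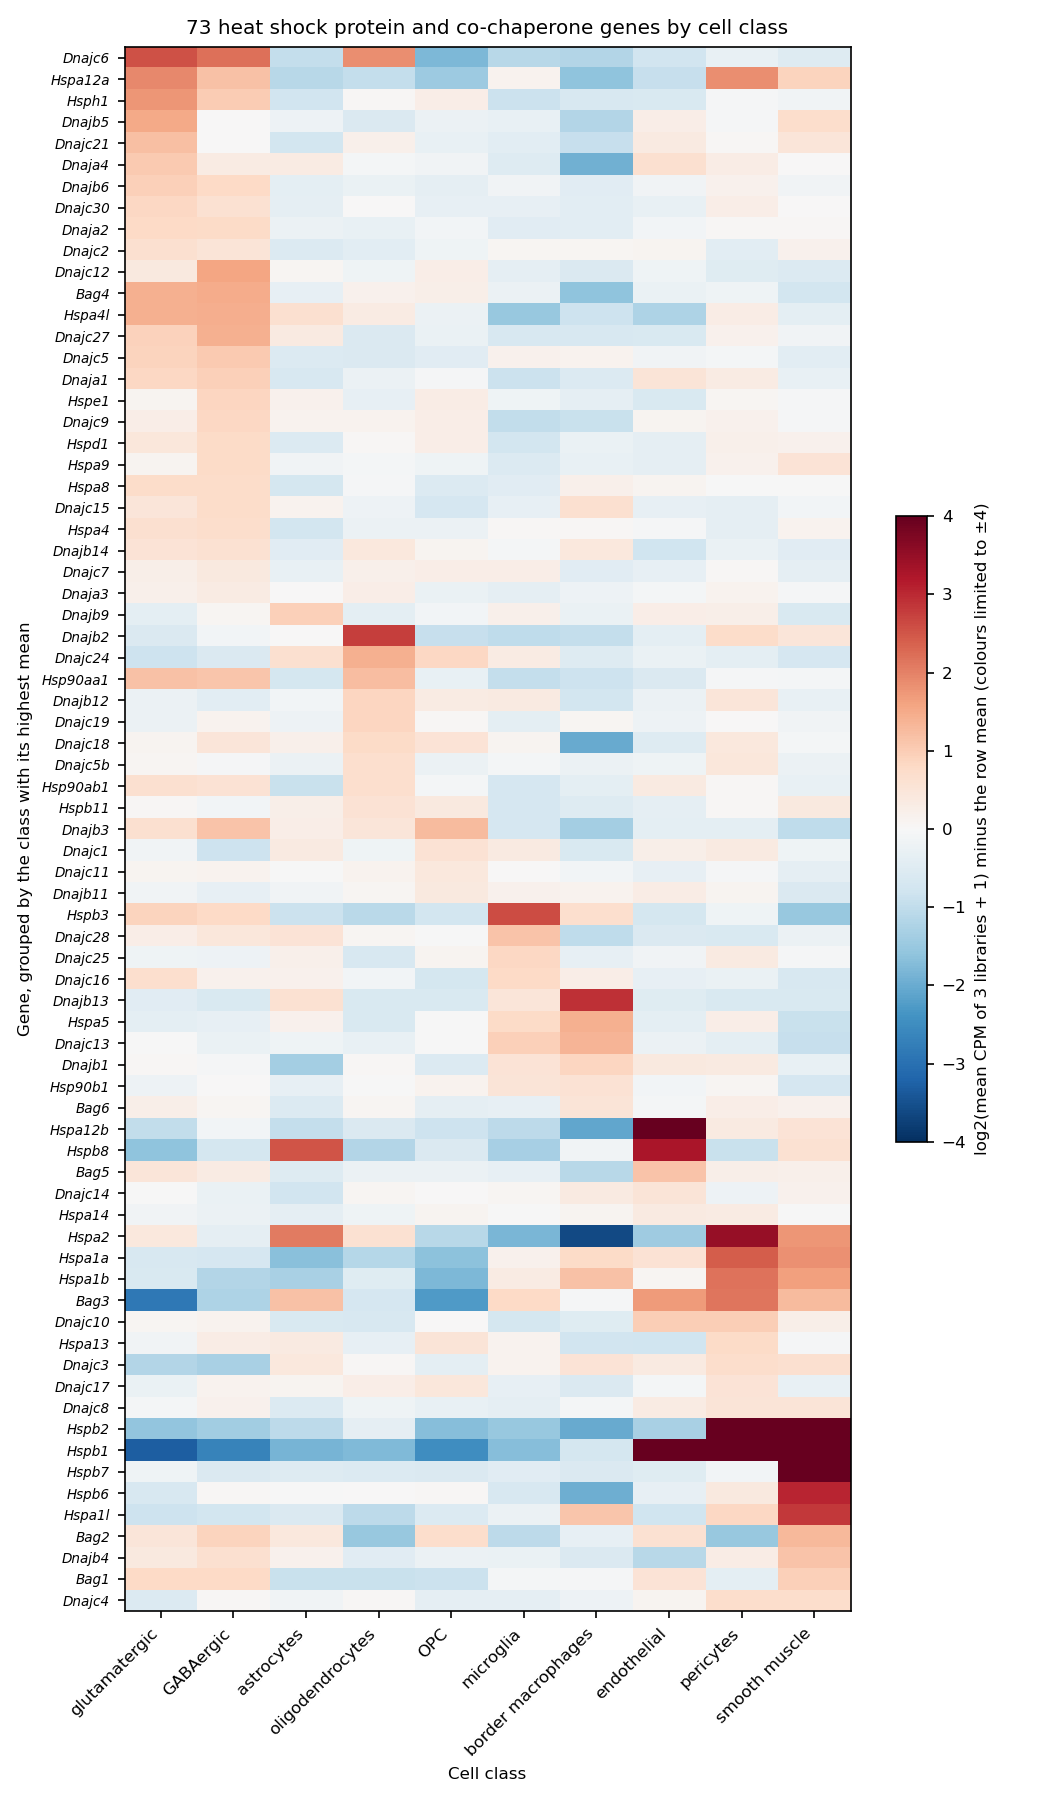
Heat map of 73 of the 74 genes (vertical axis, grouped by the class with the highest mean) in 10 cell classes (horizontal axis). Colour gives log2(mean CPM of the 3 libraries + 1) minus the gene's mean over classes, with colours limited to ±4; Hspb1, Hspb2 and Hspa12b stand out in the vascular classes, Dnajb2 in oligodendrocytes and Dnajc6 in neurons and oligodendrocytes.

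Classes were compared within libraries on UMI sums, with edgeR's quasi-likelihood test and Benjamini-Hochberg adjustment over 17401 genes. A member was called when its adjusted p was under 0.05 and it differed at least 2-fold from the mean of the other classes. That mean was taken over log2 levels, so classes with few UMIs pull it down. The log2 differences are therefore not ratios to the average CPM of the other classes. Of the 73 members tested, 14 were higher in glutamatergic neurons and 5 lower; over all genes tested, 23.9% were higher and 15.0% lower. In GABAergic neurons 9 were higher and 6 lower, where 18.8% and 15.2% of all genes were called. Oligodendrocytes had 11 higher and 6 lower against 14.8% and 13.3% of all genes, and astrocytes had 6 and 6 against 21.0% and 11.0%. Microglia had 7 and 7 against 19.0% and 13.7%, and endothelial cells 7 and 3 against 16.4% and 9.79%. The remaining classes were precursors of oligodendrocytes with 1 higher and 11 lower (16.6% and 10.3% of all genes), border macrophages with 5 and 8 (12.8% and 9.03%), pericytes with 7 and 1 (10.6% and 7.71%) and smooth muscle cells with 13 and 3 (11.9% and 6.97%). The median log2 difference of the members was 0.23 in glutamatergic neurons, beside 0.06 for all genes, -0.17 in astrocytes beside 0.08, and -0.48 in oligodendrocyte precursors beside -0.06. In most classes the members' counts were near or below the share of all genes, so nothing is read from them about the set as a whole, and the results below are about single members.

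The HSP90 proteins of the cytosol were high in neurons and oligodendrocytes. Levels are in CPM, the gene's UMIs per 1000000 UMIs of nuclear genes in a class, and are given in the order estrus, diestrus, male. Hsp90aa1, the heat-inducible form, had 1961, 1466 and 1568 CPM in glutamatergic neurons. Oligodendrocytes had 1852, 1377 and 1922 CPM, and microglia 248, 408 and 492. Every neuronal and oligodendrocyte value was above every value of the other 7 classes, and the 2 called contrasts were 1.26 on the log2 scale in glutamatergic neurons (adjusted p = 4.5e-07, edgeR) and 1.64 in oligodendrocytes (adjusted p = 4.1e-09). Hsp90ab1, the constitutive form, had 2180, 1806 and 1901 CPM in glutamatergic neurons, 2110, 1750 and 2107 in oligodendrocytes and 534, 770 and 717 in astrocytes. Its contrast of 1.02 in oligodendrocytes (adjusted p = 1.2e-07, edgeR) sat at the 2-fold limit and was 0.96 without the estrus library and 0.89 without the male library, both below it.

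Hspa8, the constitutive HSC70, was high everywhere and called in no class: it had 1679, 1493 and 1416 CPM in glutamatergic neurons and 465, 586 and 632 in astrocytes. Dnaja1, the J-domain partner of cytosolic HSP70, had 717, 591 and 571 CPM in glutamatergic neurons, 706, 442 and 378 in endothelial cells and 211, 223 and 248 in astrocytes. It was likewise below 2-fold in every class, with a log2 difference of 0.86 in glutamatergic neurons (adjusted p = 1.3e-05, edgeR). Hsph1, the HSP110 exchange factor, separated neurons more clearly. It had 295, 245 and 251 CPM in glutamatergic neurons and 178, 128 and 168 in GABAergic neurons, and no other class exceeded 104. The difference in glutamatergic neurons was 1.91 on the log2 scale (adjusted p = 2.7e-11, edgeR). Hspa4l, a second HSP110-type gene, was higher in glutamatergic neurons by 1.55 (adjusted p = 7.3e-12) and lower in microglia, at -1.65 (adjusted p = 9.6e-10).

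Among glutamatergic neurons thinned to 10000 UMIs a cell, the abundant cytosolic members varied together: the 6 pairs formed by Hsp90aa1, Hsp90ab1, Hspa8 and Dnaja1 had Spearman coefficients between 0.367 and 0.579 over the 3 libraries. Hspa5 with Hsp90b1, both of the endoplasmic reticulum, gave 0.220 to 0.261, and Hsp90b1 with Hsp90aa1 gave 0.286 to 0.318. Fos, an activity-induced gene, gave 0.0531 to 0.204 with the first 4 genes. Abundance moved with these values: the 4 genes averaged 5.54 to 21.0 UMIs a thinned cell, Hspa5 and Hsp90b1 2.06 to 4.05 and Fos 0.725 to 1.20, and its part in the coefficients was not tested. Neurons under 10000 UMIs were left out: 135 of 1348 in estrus, 355 of 1693 in diestrus and 589 of 1495 in male. The coefficients describe cells that share a library and neuron subtypes, and they carry no test.

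Promoters of the members were searched in RefSeq windows (GRCm38.p6, 250 bases before to 50 after each gene's start). Of the 74 members, 59 had at least 1 window. A member counts when any of its windows matches, while the share of all promoters is counted per window. These shares therefore have unlike bases. A heat shock element is a run of inverted GAA units. The pattern of 3 units (GAANNTTCNNGAA or TTCNNGAANNTTC, read on both strands) was in 4 of the 59, or 6.78%, and in 0.603% of 32851 promoters. The shorter pattern of 2 units (GAANNTTC or TTCNNGAA), which the longer one contains, was in 16 of the 59, or 27.1%, and in 15.1% of all promoters; 9 of the 10 matched genes on a list of 13 core heat-inducible members had it. The windows below are shown because the levels of these genes are given in the text: Hspd1 and Hspe1 are read from 1 shared promoter in opposite directions, and Hspa1a and Hspa1b have the same letters. Capitals mark the elements, and each line is printed 5′ to 3′ on the strand of its gene.
Hspd1 (chr1:55088053-55088082, minus strand): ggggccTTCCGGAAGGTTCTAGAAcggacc
Hspe1 (chr1:55088053-55088082, plus strand): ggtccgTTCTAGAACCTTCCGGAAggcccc
Hsph1 (chr5:149636351-149636380, minus strand): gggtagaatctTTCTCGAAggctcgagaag
Hspb1 (chr5:135887811-135887840, plus strand): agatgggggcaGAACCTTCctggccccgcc
Hspa1a (chr17:34972242-34972271, minus strand): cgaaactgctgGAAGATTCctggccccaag
Hspa1b (chr17:34959324-34959353, minus strand): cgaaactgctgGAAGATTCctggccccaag
A match says only that these letters are present, and the stretch shared by Hspd1 and Hspe1 is counted for both genes.

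The members on the core heat-inducible list did not share a class pattern. That list also holds Hsp90ab1 and Hspa8, named above as constitutive. Of the 13 core heat-inducible members, 2 were higher and 2 lower in glutamatergic neurons, where 23.9% and 15.0% of all genes were called. In smooth muscle cells 5 were higher and 0 lower (11.9% and 6.97% of all genes), in pericytes 4 and 0 (10.6% and 7.71%), in astrocytes 1 and 4 (21.0% and 11.0%), and in GABAergic neurons and oligodendrocyte precursors 0 and 4 each (18.8% and 15.2%, 16.6% and 10.3%). Both genes of the chaperonin pair had their highest mean in GABAergic neurons. Hspd1 had 219, 172 and 188 CPM in glutamatergic neurons, 275, 202 and 241 in GABAergic neurons and 78.5, 81.4 and 92.9 in microglia. Hspe1 had 269, 228 and 219 CPM in glutamatergic neurons, 448, 370 and 390 in GABAergic neurons and 110, 146 and 173 in endothelial cells. Neither was called in a class, the largest contrast being 0.70 for Hspe1 in GABAergic neurons (adjusted p = 2.3e-06, edgeR). The gene models of Hspd1 and Hspe1 overlap, and no label or header says whether strand was used in counting, so reads could pass between them.

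Several small heat shock genes separated vascular classes from the rest. Hspb1 was high in all 3 vascular classes, which overlapped with each other, while Hspb2, Hspb6 and Hspb7 were highest in smooth muscle cells. Hspb1 (HSP27, at chromosome 5, 135887919 to 135889563, mm10, GENCODE annotation), which binds actin and unfolded proteins, had 1522, 791 and 733 CPM in endothelial cells. Pericytes had 1334, 550 and 441 CPM and smooth muscle cells 1655, 848 and 728. In glutamatergic neurons it had 3.87, 2.10 and 1.04 CPM. No value outside these 3 vascular classes exceeded 37.8 CPM, so they did not overlap with the rest. The log2 difference was 5.86 in endothelial cells (adjusted p = 1.4e-23, edgeR), 4.97 in pericytes (adjusted p = 5.8e-21) and 5.76 in smooth muscle cells (adjusted p = 1.7e-22). The low Hspb1 level elsewhere was 0.142% to 2.48% of the endothelial level, and the summed endothelial markers there stood at 0.210% to 3.09%. Both ranges are pooled over classes and libraries, and they were not matched class by class. Single markers differed widely: from 0% to 30.6% of their endothelial level in male border macrophages, and from 0.124% to 7.05% in estrus glutamatergic neurons. Their sum is therefore only a rough measure of endothelial RNA.

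Hspb2, a small heat shock protein known from muscle, was counted almost entirely in mural cells: 330, 291 and 313 CPM in smooth muscle cells and 108, 75.7 and 113 in pericytes, with at most 2.67 in every other class. Its log2 difference was 8.85 in smooth muscle cells (adjusted p = 4.3e-25, edgeR), but it had 0 UMIs in border macrophages in every library, so the fitted size depends on the prior count and is no bound. Hspb7, a cardiac and skeletal muscle form, was counted mostly in smooth muscle cells, with 33.0, 18.2 and 18.1 CPM there and at most 1.13 in any other class. It was also called in glutamatergic neurons (log2 difference 2.04, adjusted p = 0.021, edgeR) at only 0.496, 0.206 and 0.287 CPM, and this call was lost with DESeq2 (adjusted p = 0.084) and, in edgeR, without the estrus library (adjusted p = 0.095) or the diestrus library (adjusted p = 0.067). Hspb6 (HSP20), which takes part in smooth muscle relaxation, had 26.7, 30.9 and 36.1 CPM in smooth muscle cells and 3.77, 2.70 and 5.66 in pericytes. Of the 7 members with an Hspb symbol, 4 were higher in smooth muscle cells (11.9% of all genes). In pericytes 2 were higher (10.6%) and in endothelial cells 2 (16.4%), with 0 lower in these 3 classes. Hspb11 is among the 7 by its symbol only and was called in no class. In glutamatergic neurons 2 were higher and 2 lower (23.9% and 15.0%), and in oligodendrocytes 1 was higher and 3 lower (14.8% and 13.3%). The gene model of Hspb2 overlaps Cryab on the opposite strand.

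The other called Hspb genes, Hspb8 and Hspb3, followed other classes. Hspb8 (HSP22), which pairs with Bag3 in the autophagy of misfolded proteins, had 48.6, 26.8 and 29.7 CPM in endothelial cells and 22.4, 20.9 and 18.0 in astrocytes, and at most 7.11 elsewhere. Both were called, at 4.92 (adjusted p = 8.8e-16, edgeR) and 3.89 (adjusted p = 2.6e-12) on the log2 scale. Bag3 had 41.8, 26.7 and 17.3 CPM in endothelial cells, 54.7, 29.7 and 32.8 in pericytes and 23.1, 18.5 and 16.8 in astrocytes, but only 0.172, 0.288 and 0.323 in glutamatergic neurons. Every neuronal value was below every endothelial, pericyte and astrocyte value. The neuronal contrast was -5.29 (adjusted p = 2.2e-11, edgeR), and -4.67 without the diestrus library, where oligodendrocyte precursors had 0 UMIs in both remaining libraries and the adjusted p was 1. Hspb3, best known from muscle, marked microglia instead, with 16.3, 23.1 and 23.5 CPM and a log2 difference of 3.85 (adjusted p = 7e-13, edgeR); glutamatergic neurons followed with 7.86, 4.33 and 4.85 CPM.

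**Figure D2:**
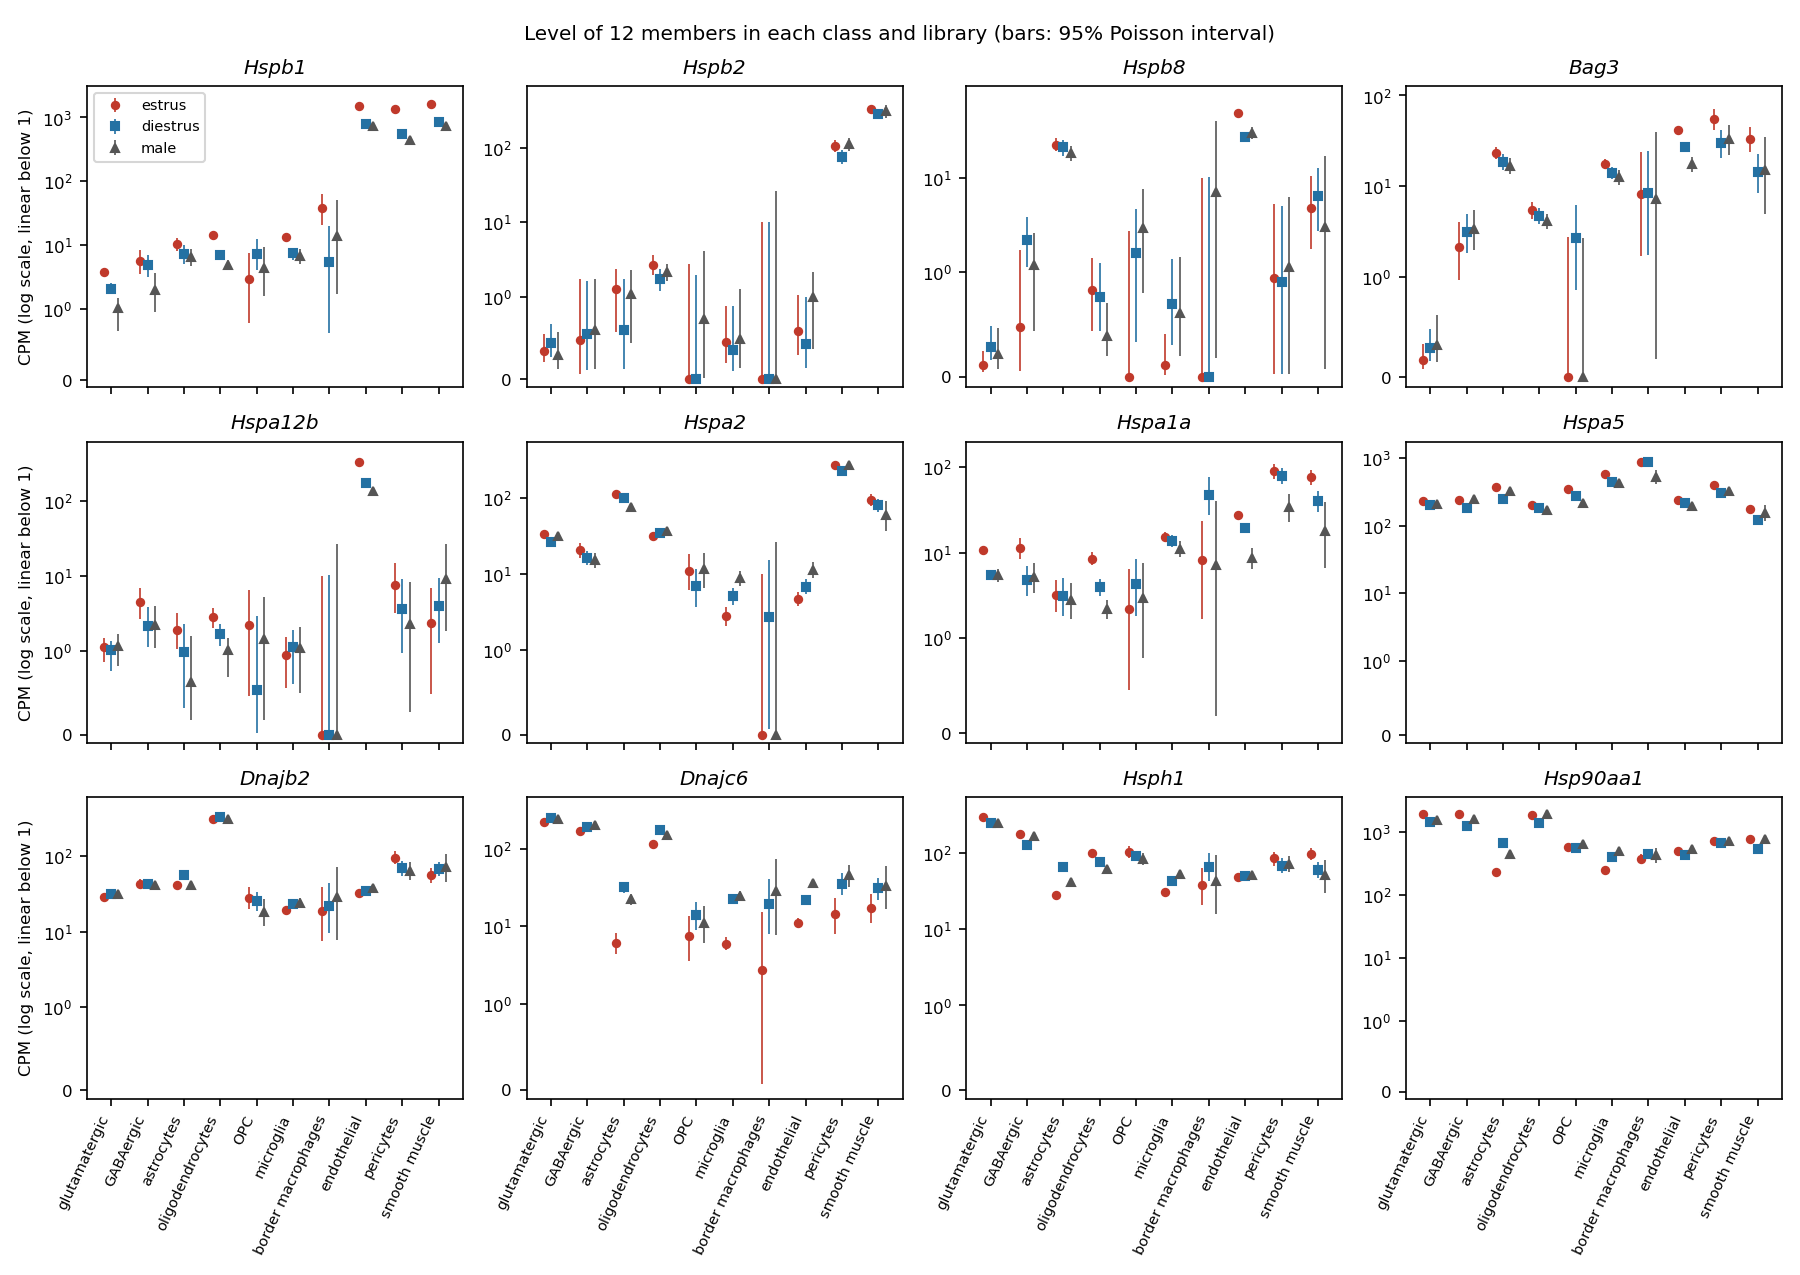
Level of 12 members in CPM (vertical axes, log scale that is linear below 1) in each class (horizontal axis) for the estrus, diestrus and male libraries; points are 1 library each and bars the 95% Poisson interval of the count. Hspb1 sits between 441 and 1655 CPM in the 3 vascular classes and at most 37.8 elsewhere, and Hspa12b at most 9.03 CPM outside endothelial cells.

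Members of the HSP70 family were also divided among vascular and glial classes. Hspa12b, a distant HSP70 relative of endothelium (chromosome 2, 131127280 to 131146321), had 331, 171 and 136 CPM in endothelial cells and at most 9.03 CPM in any other class. Its log2 difference was 7.81 (adjusted p = 1.2e-22, edgeR), with border macrophages at 0 UMIs in every library. Hspa2, known for its need in sperm formation, had 274, 231 and 274 CPM in pericytes, 114, 101 and 76.3 in astrocytes and 95.9, 80.9 and 60.2 in smooth muscle cells. All 3 classes were called, with pericytes at 3.84 (adjusted p = 2.7e-16, edgeR) and astrocytes at 2.51 (adjusted p = 2.4e-12), and the pericyte values overlapped with no other class. Hspa12a, the sister gene of Hspa12b, took the opposite side: 78.8, 82.8 and 78.5 CPM in glutamatergic neurons and 78.3, 90.1 and 60 in pericytes, against 5.93, 10.2 and 15.0 in endothelial cells. It was higher in glutamatergic neurons by 2.21 (adjusted p = 2.2e-13, edgeR) and in pericytes by 2.0 (adjusted p = 1.6e-09).

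The stress-induced HSP70 genes Hspa1a and Hspa1b were low in most cells and highest in mural cells. Hspa1a had 89.6, 78.4 and 33.9 CPM in pericytes, 75.5, 39.6 and 18.1 in smooth muscle cells, 27.2, 19.2 and 8.57 in endothelial cells and 10.8, 5.54 and 5.43 in glutamatergic neurons. The log2 difference was 2.64 in pericytes (adjusted p = 4e-09, edgeR) and 2.20 in smooth muscle cells (adjusted p = 7.1e-07). Hspa1b had 20.8, 23.4 and 19.2 CPM in pericytes, at 2.73 (adjusted p = 9.4e-08). Astrocytes were at the low end for both, with 3.18, 3.15 and 2.82 CPM of Hspa1a and log2 differences of -2.06 and -2.02. Thinning to 2000 UMIs left out shallower cells: 32 of 325 pericytes in estrus, 80 of 382 in diestrus and 104 of 368 in male. Of the thinned cells, 12.97% of estrus pericytes had a UMI of Hspa1a (exact binomial 95% interval 9.34% to 17.4%). The share was 9.93% of diestrus pericytes (6.80% to 13.9%) and 3.03% of male pericytes (1.32% to 5.88%). These intervals cover the sampling of cells within each library, and not the spread between mice or preparations. Whether they overlap is therefore no test of stage or sex. The shares in astrocytes, which were low in the gene, were 0.784%, 0.349% and 0.454%. Hspa1a and Hspa1b are near-identical copies, so reads could have moved between them.

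The 8 members of the endoplasmic reticulum had no class in common. Of them, 1 was higher in border macrophages (Hspa5), 1 in astrocytes (Dnajb9) and 1 in endothelial cells (Dnajc10), where 12.8%, 21.0% and 16.4% of all genes were called, and 0 in microglia (19.0%). Lower were 1 in glutamatergic neurons (15.0% of all genes), 2 in GABAergic neurons (15.2%) and 1 in smooth muscle cells (6.97%). Hspa5 (BiP), the reticulum's HSP70 and a main target of the unfolded protein response, had 866, 879 and 533 CPM in border macrophages and 592, 444 and 431 in microglia, against 232, 205 and 211 in glutamatergic neurons. The log2 difference was 1.75 in border macrophages (adjusted p = 1.4e-11, edgeR); microglia at 0.96 (adjusted p = 1.9e-07) stayed under 2-fold, and smooth muscle cells were lower at -1.02 (adjusted p = 1.1e-05). Hsp90b1 (GRP94) had 518, 707 and 754 CPM in border macrophages and 617, 612 and 636 in microglia, and was called in no class. Dnajc3 (p58IPK), which also restrains the kinase PERK, was low in neurons instead: 56.1, 45.6 and 40.9 CPM in glutamatergic neurons against 193, 137 and 112 in astrocytes and 242, 139 and 148 in pericytes. Its contrast was -1.36 in glutamatergic neurons (adjusted p = 1.1e-09, edgeR) and -1.70 in GABAergic neurons (adjusted p = 1e-10). Dnajb9 (ERdj4) was highest in astrocytes with 118, 97.0 and 122 CPM (log2 difference 1.12, adjusted p = 4.2e-11), and Dnajb11 (ERdj3) was called nowhere.

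The endoplasmic reticulum stress response element was searched as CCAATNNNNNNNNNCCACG or its reverse complement. Its pattern was in 3 of the 59 matched members, or 5.08%, and in 0.119% of all promoters, counted per window. It was found in Hspa5, Hsp90b1 and Dnajc3, whose windows are printed because they are the members with the element; the mean level was highest in border macrophages for Hspa5 and Hsp90b1 and in pericytes for Dnajc3, and for each of the 3 the highest class overlapped with the next.
Hspa5 (chr2:34772020-34772049, plus strand): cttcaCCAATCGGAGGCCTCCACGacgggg
Hsp90b1 (chr10:86705527-86705556, minus strand): gagtgCGTGGTGAGGCACGATTGGtgagtt
Dnajc3 (chr14:118937822-118937851, plus strand): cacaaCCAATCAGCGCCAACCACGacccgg
The Hsp90b1 window holds the element on the opposite strand.

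Of the J-domain proteins, Dnajc6 and Dnajb2 had the widest class differences among well-counted genes. Dnajc6 (chromosome 4, 101496648 to 101642799) had 219, 250 and 243 CPM in glutamatergic neurons, 166, 189 and 198 in GABAergic neurons and 113, 171 and 151 in oligodendrocytes. The remaining classes had at most 45.2. The log2 difference was 2.98 in glutamatergic neurons (adjusted p = 3.4e-14, edgeR), 2.35 in GABAergic neurons (adjusted p = 2.7e-11) and 2.49 in oligodendrocytes (adjusted p = 2.5e-12). In oligodendrocytes Dnajc6 stood at 51.8%, 68.6% and 62.3% of its neuronal level, while the summed neuronal markers stood at 3.21%, 6.98% and 8.70% there. In the other 7 non-neuronal classes Dnajc6 lay between 1.23% and 18.6% of its neuronal level and the markers between 1.91% and 17.1%.

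Dnajb2 (HSJ1, chromosome 1, 75236406 to 75245692), which hands ubiquitinated clients to the proteasome, had 310, 332 and 313 CPM in oligodendrocytes, 96.2, 69.4 and 64.5 in pericytes and 29.3, 31.5 and 31.3 in glutamatergic neurons. It was the member that marked oligodendrocytes most, at 3.39 on the log2 scale (adjusted p = 3.1e-22, edgeR), with no overlap between classes. Dnajc24, which acts in diphthamide synthesis, followed with 138, 131 and 120 CPM there (1.89, adjusted p = 3.4e-16). Dnajc5, the cysteine string protein of synaptic vesicles, was spread more evenly: 149, 166 and 161 CPM in glutamatergic neurons, 91.4, 98.3 and 96.1 in microglia and 51.6, 57.1 and 63.1 in astrocytes. Its neuronal contrast of 0.95 (adjusted p = 2.2e-10, edgeR) was under 2-fold. Dnajb1, the inducible partner of HSP70, was highest in border macrophages with 70.2, 49.9 and 56.9 CPM (1.10, adjusted p = 0.0012) and lowest in astrocytes with 11.1, 11.4 and 13.2 (-1.51, adjusted p = 2.1e-08). Dnajb4 was highest in smooth muscle cells with 131, 136 and 126 CPM (1.29, adjusted p = 2.9e-09) and low in endothelial cells with 15.0, 31.3 and 33.8 (-1.18, adjusted p = 1.4e-08), the latter being -0.94 and under 2-fold without the estrus library. Dnajc13, of endosomal sorting, was higher in border macrophages by 1.67 (adjusted p = 7.5e-07, edgeR) and in microglia by 1.15 (adjusted p = 1.1e-07).

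The remaining members were less divided or too low to describe closely. Of the 73 tested, 24 were called in no class, 17 in 1 class, 24 in 2 to 4 classes and 8 in 5 or more; the 8 were Hspb1, Hspb8, Bag3, Hspa2, Hspa12a, Hspa1a, Hspa1b and Dnajc6. Among the 24 called nowhere were Hspa4, an HSP110-type exchange factor, Hspa9, the mitochondrial HSP70, Hspa13 and Hspa14, Dnaja2 and Dnaja3, and Bag6, a chaperone of membrane proteins. Dnajc5b was not tested because of its low counts. Dnajb3 was called in 4 classes, all higher, at no more than 5.99 CPM; it lies inside the Ugt1a locus, and its counts are uncertain. Dnajc12, a co-chaperone of the aromatic amino acid hydroxylases, was highest in GABAergic neurons with 56.5, 39.7 and 46.5 CPM (log2 difference 1.68, adjusted p = 1.7e-09, edgeR).

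Partner genes outside the set were counted in the same contrasts. None of 15 HSP90 co-chaperones was higher in glutamatergic neurons and 1 was lower, and none of 14 subunits of the TRiC chaperonin and prefoldin was called there in either direction. Of 5 heat shock factors, 2 were higher in glutamatergic and 2 in GABAergic neurons, and of 9 exchange factors and partners of HSP70, 2 were higher in glutamatergic neurons and 0 lower. A list of 15 other genes of reticulum folding and the unfolded protein response had 3 higher and 0 lower in microglia and the same in border macrophages, with medians of 0.64 and 0.75 on the log2 scale. Of all genes tested, 23.9% were higher and 15.0% lower in glutamatergic neurons, and 18.8% and 15.2% in GABAergic neurons. The shares were 19.0% and 13.7% in microglia and 12.8% and 9.03% in border macrophages. Nothing is read from the list counts beside these shares.

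Between the estrus and diestrus libraries, the members of glutamatergic neurons were slightly higher in estrus. Ratios are log2 of CPM with 1 CPM added, for members with at least 100 UMIs in the class over both libraries, and their 95% intervals are exact binomial ones for the ratio without the added CPM and cover counting error only. Of 67 members measured, 52 were above 0, 4 were at least 1.5-fold higher and 0 lower, where 3.15% and 4.38% of all genes passed that size. The median was 0.23 beside -0.01 for all genes, so no more of all genes lay above 0 than below it. Ratios moved with gene length in this pair, with a median of 0.16 over the shortest 20% of all genes and -0.19 over the longest, and the members' median was 0.15 when centred on genes of like length. Hsp90aa1 had a ratio of 0.42 (0.41 to 0.43), Dnaja1 of 0.28 (0.26 to 0.30), Hsph1 of 0.27 (0.23 to 0.30) and Hspa8 of 0.17 (0.16 to 0.18). Hspa1a alone among the inducible genes passed 1.5-fold with more than 5 CPM, at 0.86 (0.76 to 1.18), and the low genes Hspb1 and Hspb3 also passed.

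Estrus over male gave a like picture in these neurons: 8 of 66 members were at least 1.5-fold higher and 0 lower (4.82% and 8.27% of all genes), with a median of 0.22 beside -0.04. Dnajc21 at 0.69 (0.63 to 0.76) and Bag5 at 0.60 (0.52 to 0.70) were among the 8, and Hspa1a stood at 0.88 (0.74 to 1.27). Diestrus and male differed in 1 of 65 members, Hspb1 at 2.10 and 1.04 CPM, where 0.713% and 1.56% of all genes passed. The comparisons share the estrus library, which also had the deepest neurons, with a median of 38270.5 UMIs a cell beside 26940 and 15455. With 5 CPM added in place of 1, 1 member rather than 4 passed for estrus over diestrus and 3 rather than 8 for estrus over male.

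**Figure D3:**
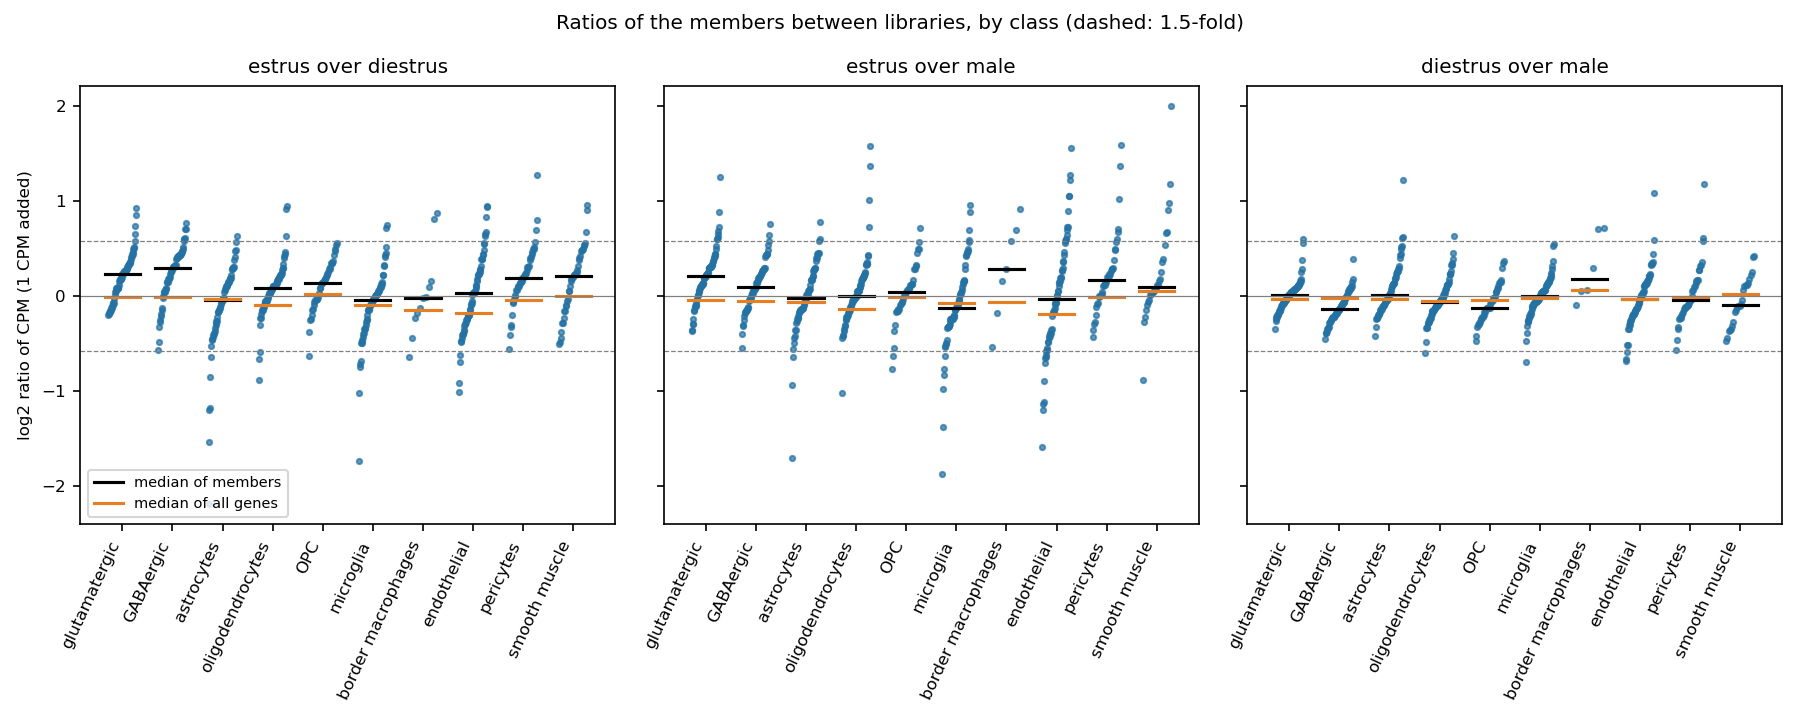
Log2 ratios of CPM (vertical axis, 1 CPM added) of the members in each class (horizontal axis) for estrus over diestrus, estrus over male and diestrus over male; each point is 1 member, the black bar the median of the members and the orange bar that of all genes. In glutamatergic neurons the members' median lies at 0.23 for estrus over diestrus and that of all genes at -0.01.

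In endothelial cells members differed between libraries in both directions. For estrus over diestrus, 6 of 64 members were at least 1.5-fold higher and 4 lower, beside 3.86% and 17.8% of all genes. The 6 were Hspb1, Hspa12b, Hspb8, Bag3, Bag5 and Dnaja1. Hspb1 had a ratio of 0.94 (0.91 to 0.98) and Hspa12b of 0.95 (0.88 to 1.03). For estrus over male, 12 of 64 were higher and 9 lower (7.33% and 25.4% of all genes), with Hspb1 at 1.05 (1.01 to 1.10), Hspa12b at 1.28 (1.18 to 1.39) and Bag3 at 1.23 (0.98 to 1.58). Hspa1a was higher in estrus at 1.56 (1.26 to 2.11), and it separated diestrus from male as well, at 1.08 (0.73 to 1.63). Dnajb4 went the other way, at -1.01 (-1.29 to -0.83) over diestrus and -1.12 (-1.44 to -0.90) over male. Diestrus and male differed in 2 members upward and 3 downward of 63, beside 2.77% and 8.42% of all genes. The median of all genes was itself shifted, to -0.18 over diestrus and -0.19 over male, and TMM scaling moved these to 0.00 and 0.06. Under that scaling 11 members rather than 6 were higher over diestrus and 2 rather than 4 lower, and Hspb1 kept a ratio of 0.92 to 1.15 over all alternatives run.

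Hspb1 was higher in estrus in every class where it could be measured. Over the male library it was at least 1.5-fold higher in 7 of 7 classes and over diestrus in 6 of 7. Pericytes had a ratio of 1.28 (1.14 to 1.42) over diestrus and 1.59 (1.43 to 1.76) over male, and smooth muscle cells had 0.96 (0.86 to 1.07) and 1.18 (0.99 to 1.38). In cells thinned to 2000 UMIs, 90.0% of estrus endothelial cells had a UMI of Hspb1 (88.8% to 91.1%), against 74.9% in diestrus (72.9% to 76.8%) and 72.0% in the male library (69.3% to 74.6%). Thinning left out endothelial cells under 2000 UMIs: 204 of 2889 in estrus, 417 of 2351 in diestrus and 741 of 1872 in male. The intervals cover the sampling of cells within each library, and not the spread between mice or preparations. Unthinned and over all cells, the shares were 95.8%, 83.2% and 74.4%, and the thinned share in glutamatergic neurons was 0.820%, 0.552% and 0.620%. Outside the vascular classes the level of Hspb1 was so low that endothelial RNA in those cells cannot be told apart from their own; in glutamatergic neurons the ratio over diestrus turned to -0.33 when each cell was given the same weight.

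Hspa1a, Dnajb1 and Dnajc3 were higher in estrus in several classes, and Dnajc8 was lower. Hspa1a exceeded the male library by 1.5-fold in 5 of 6 classes measured, with pericytes at 1.37 (0.80 to 2.04) and smooth muscle cells at 2.0 (0.89 to 3.55), the latter from 65 male cells. Dnajb1 did so in 4 of 6, with microglia at 0.96 (0.79 to 1.18) and oligodendrocytes at 1.02 (0.89 to 1.20). Dnajc3 did so in 5 of 10, with astrocytes at 0.78 (0.65 to 0.91) and endothelial cells at 0.73 (0.61 to 0.86). Dnajc8, which acts with splicing factors, was lower in estrus than in the male library by 1.5-fold in 4 of 9 classes and higher in 0, with smooth muscle cells at -0.88 (-1.23 to -0.53). Immediate early genes, which tissue dissociation can induce, were summed beside these: 18 of them reached 15737 CPM in estrus microglia, 8905 in diestrus and 8196 in the male library. They were likewise highest in estrus in smooth muscle cells, at 9132, 6258 and 5258 CPM, and in pericytes, at 4163, 3659 and 2480, the classes where Hspa1a was highest. In endothelial cells they had 3321, 4572 and 3130 CPM and in oligodendrocytes 844, 856 and 895. The part of dissociation in the differences of Hspa1a and Dnajb1 was not tested.

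Some ratios of mature glia and vessels moved together with the level of neuronal markers. The part of neuronal RNA in these ratios was not tested. In microglia, estrus over diestrus gave 2 members higher and 5 lower of 63 (2.29% and 14.2% of all genes), and estrus over male 4 higher and 6 lower of 63 (4.17% and 17.9%). Dnajc6 in microglia had 5.96 CPM in estrus, 22.2 in diestrus and 24.5 in the male library, which are 2.72%, 8.89% and 10.1% of its neuronal level and follow the neuronal markers at 3.76%, 9.46% and 12.5%. Its ratios were -1.74 and -1.87. Each library's neuronal profile was then subtracted at the level of its neuronal markers, with results below 0 set to 0. In microglia the percentages of Dnajc6 lay below those of the markers in all 3 libraries. It therefore could only come to 0 there. In endothelial cells the ratio of Dnajc6 over diestrus, taken on what was left, turned from -0.91 to 1.40. Hsp90aa1 in microglia had 248, 408 and 492 CPM and a ratio of -0.98 (-1.05 to -0.92) over male, which was -0.76 after the subtraction. Dnajb4 in endothelial cells kept -0.98 over diestrus after it. Diestrus and male microglia differed in 1 member, Hspa2, with 5.13 and 8.91 CPM, where 0.834% and 3.62% of all genes passed.

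**Figure D4:**
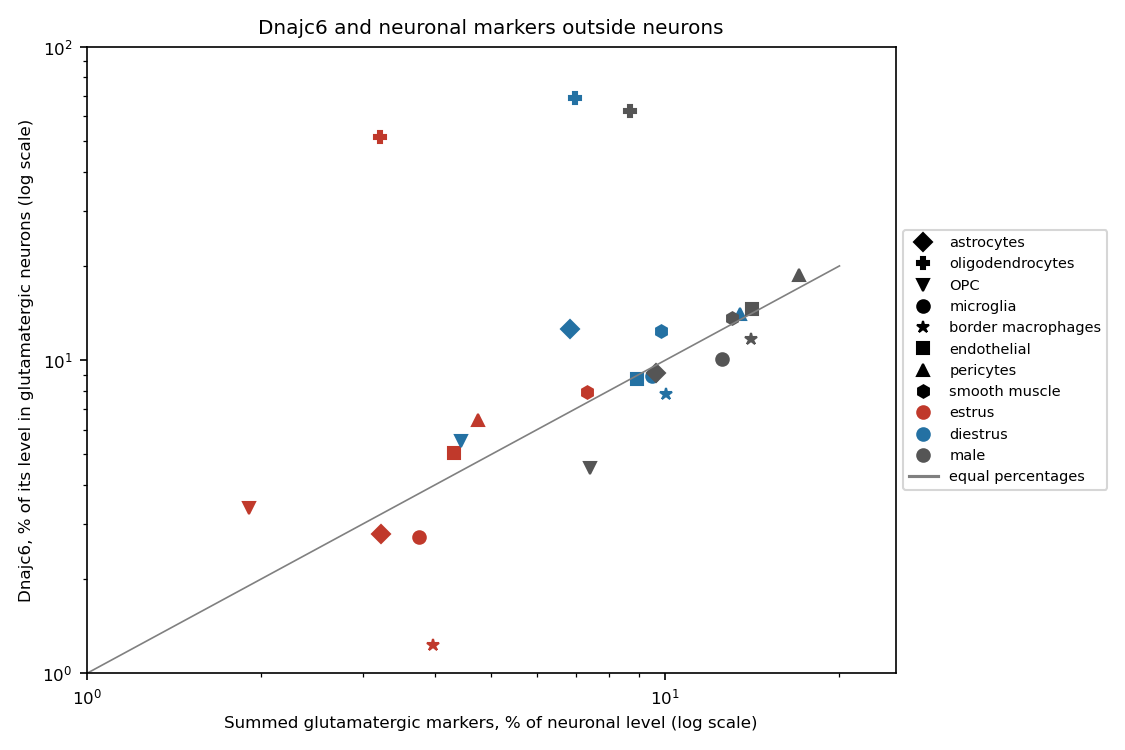
Dnajc6 as a percentage of its level in glutamatergic neurons (vertical axis, log scale) against the summed glutamatergic markers as a percentage of their neuronal level (horizontal axis, log scale); each point is 1 non-neuronal class in 1 library, and the line marks equal percentages. Oligodendrocytes lie far above the line at 51.8% to 68.6%, and the other 7 classes lie between 1.23% and 18.6%, near it.

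Astrocytes showed a further set of differences that rested on 30 cells. In the diestrus library 30 of 919 astrocyte-gated cells (3.26%) had a UMI of at least 3 of 6 ependymal markers, and 0 of 1334 estrus and 0 of 1514 male astrocytes did. Those 30 cells had 5715 CPM of Hsp90aa1, 441 of Hsph1, 472 of Hspa4l, 316 of Dnajc6 and 52.1 of Dnajb13, a J-domain protein of motile cilia. With all gated cells, estrus over diestrus gave 1 member higher and 6 lower of 61 (4.76% and 10.7% of all genes), and estrus over male 2 higher and 3 lower (4.04% and 10.9%). Diestrus over male gave 3 higher and 0 lower of 59 (3.31% and 2.59%). Hsp90aa1 had 231 CPM in estrus, 675 in diestrus and 443 in the male library, and 329 in diestrus without the 30 cells. The ratio of estrus over diestrus was -1.54 with them and -0.51 without, and diestrus over male turned from 0.61 to -0.43. Hsph1 had 27.9, 64.7 and 41.7 CPM and 38.9 in diestrus without them, so its ratio of diestrus over male turned from 0.62 to -0.10. The astrocyte call of Dnajb13, 3.92 on the log2 scale (adjusted p = 0.01, edgeR), was 1.48 (adjusted p = 0.28) without them. Hspa5 in astrocytes, 381, 246 and 330 CPM, kept its ratio of estrus over diestrus at 0.63 with them and 0.74 without.

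**Figure D5:**
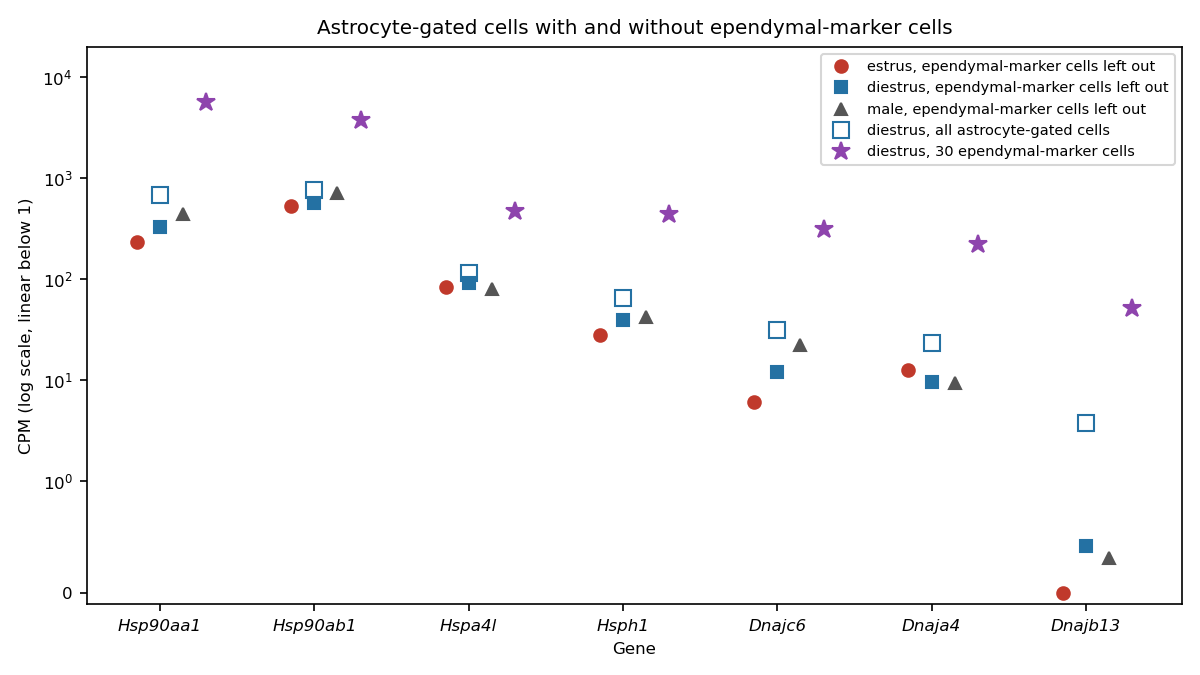
CPM (vertical axis, log scale that is linear below 1) of 7 members in astrocyte-gated cells: filled symbols leave out the ependymal-marker cells in each library, the open square is all diestrus cells and the star the 30 diestrus ependymal-marker cells. Hsp90aa1 in diestrus falls from 675 to 329 CPM when those cells are left out.

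The remaining classes gave few members past 1.5-fold. Oligodendrocytes had 3 higher and 3 lower of 62 for estrus over diestrus (2.12% and 12.5% of all genes), among them Hspa12a at -0.89 and Hspa1a at 0.95, and 4 higher and 1 lower of 65 over male (2.44% and 16.2%), with Hspa1a at 1.58. GABAergic neurons had 6 higher and 0 lower of 58 over diestrus (6.64% and 9.33%), with Bag1, an exchange factor of HSP70, at 0.77 (0.63 to 0.91); over male 2 of 57 were higher and 0 lower (5.08% and 7.69%), and diestrus over male gave 0 in either direction (1.21% and 1.23%). For oligodendrocytes, diestrus over male gave 1 higher and 1 lower of 65 (0.54% and 2.07%), the lower one being Hsp90b1 at -0.61. Pericytes had 3 higher and 0 lower of 41 over diestrus (6.72% and 12%) and 6 and 0 of 38 over male (7.43% and 11.7%), where Dnaja1 stood at 1.03 (0.82 to 1.24), and 2 and 0 of 37 for diestrus over male (2.86% and 2.35%). Smooth muscle cells had 3 higher and 0 lower of 40 (5.49% and 10.4%) over diestrus and 6 and 1 of 28 over male (12.3% and 10.0%), and none of 24 for diestrus over male (8.85% and 5.22%). Hspb2, the gene that marked the mural cells, stayed under 1.5-fold in both: its ratios in smooth muscle cells were 0.18 (-0.02 to 0.39) for estrus over diestrus and 0.08 (-0.24 to 0.40) over male, and in pericytes 0.50 (0.09 to 0.93) and -0.07 (-0.47 to 0.33). Oligodendrocyte precursors had 0 higher and 1 lower of 40 over diestrus (6.57% and 5.45%), 1 and 2 of 37 for estrus over male (4.92% and 6.78%) and 0 and 0 of 39 for diestrus over male (1.34% and 2.66%). Border macrophages, with 56 cells in the smallest library, had only 11 members measured for estrus over diestrus, 2 of them higher and 1 lower (15.0% and 21.5%). They had 2 higher and 0 lower of 7 for estrus over male (18.6% and 19.5%) and of 6 for diestrus over male (12.2% and 5.66%).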

How the data were processed

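Each library is a deposited matrix of raw UMI counts per gene and cell barcode, which the authors made with Cell Ranger; the submitters' processing notes name version 3.0.2 and mm10, and the file headers name version 7.0.0. No label or header states the strand and intron settings. Members and gene lists were chosen with earlier results of these data known. Cells with at least 500 genes and at most 15% mitochondrial UMIs were gated: at least 3 of 6 markers of a class with a UMI, the highest score, and the next class at most 0.5 of it. No doublet caller was run. The gate drops cells whose next class scores above 0.5 of the highest, so mixed cells under that limit and doublets of 1 class stay. In estrus, diestrus and male, that limit dropped 1090, 1251 and 1390 cells, and 427, 2736 and 2864 had too few markers; cells gated as fibroblast-like were too few to use. UMIs were summed per library and class, and CPM are per 1000000 nuclear-gene UMIs. In border macrophages the summed microglial markers stood at 1368, 1738 and 1749 CPM. Pericyte markers in smooth muscle cells stood at 1400, 882 and 1213 CPM.

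Class contrasts came from edgeR 4.0.16 (R 4.3.3) with TMM scaling, the library as a block and all 10 classes in 1 fit. The 3 libraries, which differ in stage or sex, are the replicates. The p-values rest only on the spread of class differences over these libraries that the block leaves, estimated over all classes together. Contrasts for GABAergic neurons, oligodendrocyte precursors, border macrophages, pericytes and smooth muscle cells were read from the same fit but added later. Library pairs have no test: a size of 1.5-fold stands in, among members with at least 100 UMIs. Intervals are 95% exact (Poisson, or binomial by Clopper-Pearson) and cover counting error only. The fit was tested on simulated counts. DESeq2 1.42.0 was an alternative. Genes were named by rule: up to 4 called members at each end of a class contrast, up to 3 at each end of a library pair, and the core heat-inducible, reticulum and vesicle members in every case; Dnajc24, Dnajc13, Hspb3, Hspb6, Hspb8, Bag5, Hspa4l, Dnajc21, Dnajc8 and Bag1, where named outside it, were chosen after their values were seen. For 1 member, values are not reported here, though it stays in the counts. Counting and plotting used Python 3.11.15 with numpy 2.4.6, scipy 1.17.1, pandas 2.3.3 and matplotlib 3.10.9.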

Additional observations from a re-analysis of the deposited data

Results flagged for a closer look

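A small number of members moved at least 1.5-fold in opposite directions in 2 classes of the same library pair. These differences between classes were not tested, since there is 1 library per group. For estrus over diestrus, Bag1 had a log2 ratio of 0.77 in GABAergic neurons and -0.64 in oligodendrocyte precursors. Hsph1 had 0.67 in smooth muscle cells and -1.18 in astrocytes, and Hsp90aa1 had 0.60 in GABAergic neurons and -1.54 in astrocytes. Without the 30 ependymal-marker cells of the diestrus astrocytes the last values of Hsph1 and Hsp90aa1 were -0.46 and -0.51, under 1.5-fold. For estrus over male, Hsph1 had 0.91 in smooth muscle cells and -0.77 in microglia, and Hspa2 had 0.66 in smooth muscle cells and -1.38 in microglia. The Hsph1 ratio in microglia was -0.14 after subtraction of neuronal RNA. Dnajc15, a mitochondrial J-domain protein, had 0.63 in glutamatergic neurons and -0.62 in endothelial cells.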

How the results depend on the processing

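Of the members' counts recomputed under each alternative, 227 stayed within 1.5 times of the reported count and 57 did not; the cause was not tested. Among the class contrasts, a strict marker gate gave 22 higher members in glutamatergic neurons and 3 lower in oligodendrocytes. That gate left 28, 24 and 15 border macrophages in estrus, diestrus and male, and 31 male smooth muscle cells. These are under the minimum of 50 cells, yet both classes stayed in the mean of the other classes. DESeq2 gave 8 lower in glutamatergic neurons, 8 lower in endothelial cells, 4 higher and 13 lower in microglia and 6 higher in oligodendrocytes, and DESeq2 size factors in edgeR gave 7 higher in oligodendrocytes. Leaving out each library in turn gave 14 to 17 higher and 3 to 5 lower in glutamatergic neurons, 6 to 7 and 2 to 5 in endothelial cells, 6 to 8 and 6 to 8 in microglia, 4 to 6 and 5 to 10 in astrocytes, and 8 to 10 and 2 to 6 in oligodendrocytes. Without the diestrus library, 3 were lower in glutamatergic neurons, 10 in astrocytes and 2 in oligodendrocytes; without the male library, 3 in glutamatergic neurons and 5 in endothelial cells. Without the library as a replicate block, 14 and 5 were called in glutamatergic neurons, and all calls but 1 in astrocytes and 1 in oligodendrocytes were kept. Among members named by rule, 39 calls no longer passed under an alternative, a call counting anew in each alternative where it was lost. Of these 39, 16 had an adjusted p of 1, and in all 16 some class had 0 UMIs in every library used. Calls of other members were lost too and are not among the 39. With DESeq2, for example, 6 of 11 higher calls in oligodendrocytes and 4 of 7 in microglia were kept. The calls in the other 5 classes were not recomputed. No paired analysis was possible because each stage or sex has 1 library.

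For library pairs in glutamatergic neurons, estrus over diestrus gave 1 higher member with 5 CPM added and 2 when centred on genes of like length, estrus over male gave 3 and 4, and diestrus over male gave 2 with TMM, 2 with DESeq2 size factors, 2 with cells weighted alike, and 0 with 5 CPM added, a loose gate or cells of at least 2000 UMIs. In endothelial cells, estrus over diestrus gave 11 higher and 2 lower with TMM, 13 and 2 with DESeq2 size factors, 10 and 2 with neuronal RNA subtracted, 2 lower with 5 CPM added and 1 lower with length centring. Estrus over male gave 5 lower with TMM, DESeq2 size factors or length centring and 4 with the subtraction. Diestrus over male gave 1 higher and 1 lower with 5 CPM added or a strict gate, 1 higher with cells of at least 2000 UMIs, 1 lower with a loose gate, and 5 higher and 1 lower with the subtraction. In microglia, estrus over diestrus gave 1 higher and 3 lower with 5 CPM added, 4 higher from members with at least 20 UMIs and 2 lower with the subtraction. Estrus over male gave 7 higher from members with at least 20 UMIs, 8 with length centring, and 7 higher and 2 lower with the subtraction. Diestrus over male gave 1 higher with cells weighted alike, 2 with length centring and 3 with the subtraction, and 0 lower with 5 CPM added, a strict gate or length centring. Single ratios that turned were Hspb1 in glutamatergic neurons over diestrus (-0.33 with cells weighted alike), Dnajc6 in endothelial cells (1.40 over diestrus and 0.33 over male) and microglia (0 and 0) with neuronal RNA subtracted, and, for diestrus over male in astrocytes without the ependymal-marker cells, Hsph1 (-0.10) and Hsp90aa1 (-0.43). The values of 0 for Dnajc6 in microglia arise because results of the subtraction below 0 were set to 0. The subtraction and the removal of those cells were chosen after the data were seen. Genes under 5 CPM rest on few UMIs and their ratios on the added CPM.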
